A study of Mus musculus with 7 samples.

Results

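The 29 genes described here encode the machinery that makes, moves and turns over cholesterol. They were chosen by symbol from the 22880 genes of the deposited expression table. Of them, 20 are enzymes of cholesterol synthesis, from Acat2 at the start of the pathway to Dhcr7 at its end, and 9 serve uptake, storage, export or oxidation. RNA was sequenced from optic nerves, taken at postnatal day 14 (P14), of 4 control mice with the FASN lox/lox genotype and 3 mutant mice with the olig2cre FASN lox/lox genotype, from floxed mice backcrossed into C57Bl/6. By the labels all 7 mice carried 2 floxed Fasn alleles and the controls lacked Cre, whereas the methods of the study also allow controls with 1 floxed allele. The Olig2 promoter drives Cre in cells of the oligodendrocyte (OL) lineage, whereas the sequenced RNA came from whole nerves, both nerves of 1 mouse making 1 sample. Values are given as FPKM, the number of fragments scaled for library size and for the length deposited for each gene, such as 2697 bases for Lrp1. Rankings of level between genes therefore depend on that length, and comparisons between samples on the scaling.

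OLs build myelin, a membrane with a high content of cholesterol, and because the blood-brain barrier holds back lipoprotein cholesterol from the circulation, cells of the CNS make their own. Synthesis starts from acetyl-CoA, the same building block that fatty acid synthase uses, and passes through mevalonate, isoprenoid diphosphates, squalene and lanosterol. In textbook accounts the genes of these enzymes are switched on together by the sterol-regulated transcription factor SREBP-2, whereas surplus sterol is esterified, exported on apolipoprotein E particles or oxidised. The comparison asks whether the RNA of this machinery differed when OL lineage cells lost the enzyme that makes fatty acids.

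The libraries held between 27454945 and 43447721 reads, estimated from the steps between low deposited values. Fasn itself ranged from 169.1 to 228.3 FPKM in the controls and from 49.0 to 69.3 FPKM in the mutants, a difference of -1.86 on the log2 scale with a standard error of 0.138 (adjusted p = 0.00312, limma-trend). Summed FPKM of the 8 markers of myelinating OLs (Mag, Mog, Mobp, Cnp, Cldn11, Ermn, Aspa and Ugt8a) was 13411 to 14599 in the controls and 10238, 12733 and 10661 in mutant samples 1 to 3. Of these markers 7 were lower on average, with Mag and Cnp past the test, and Ugt8a, which makes the galactolipids of myelin, was higher in every mutant (906 to 1222 FPKM) than in any control (774 to 900 FPKM) without passing. Summed FPKM of the 6 astrocyte markers was 2559 to 2999 in the controls and 3297 to 4072 in the mutants, and 3 of these 6 genes passed the test, all higher. In a whole nerve, fewer cells of a type and less RNA per cell cannot be told apart. By their Y-linked RNA, samples 1 and 2 of either genotype were from females and control samples 3 and 4 and mutant sample 3 were from males. Mutant sample 2 also held RNA of skeletal muscle, with 40.6 summed FPKM of 4 muscle markers against 0.734 to 3.17 in the other samples. Control sample 2 held the most RNA of blood cells and mutant sample 1 the most RNA of fibroblasts.

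No gene of the cholesterol set passed the test with genotype as the only term, in either direction. With limma-trend on log2(FPKM + 0.5), 0 of the 29 members had an adjusted p under 0.05, where 363 of 13866 genes tested (2.62%) did, 188 lower (1.36%) and 175 higher (1.26%). Among all genes tested this split depended on the scaling, with 266 lower and 102 higher for the deposited normalized counts, 215 lower and 124 higher after median-of-ratios scaling and 147 lower and 94 higher after rescaling to equal sums. Other fits tilted toward higher, with 269 lower and 890 higher under the replicate block and 763 lower and 914 higher with DESeq2. At an unadjusted p under 0.05 stood 7 of the 29 members (24.1%), beside 24.4% of all genes tested. The quasi-likelihood test of edgeR on the estimated reads passed none of the 29 either, with 2.89% of all genes passing. DESeq2 on the same reads passed 12.1% of all genes, and among the members it passed Ebp as lower and Soat1 as higher. Limma-trend with the replicate number as a block, which pairs samples 1 to 3 of the genotypes, passed Soat1 and Lrp1 as higher, where 6.42% of all genes passed as higher.

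**Figure D1:**
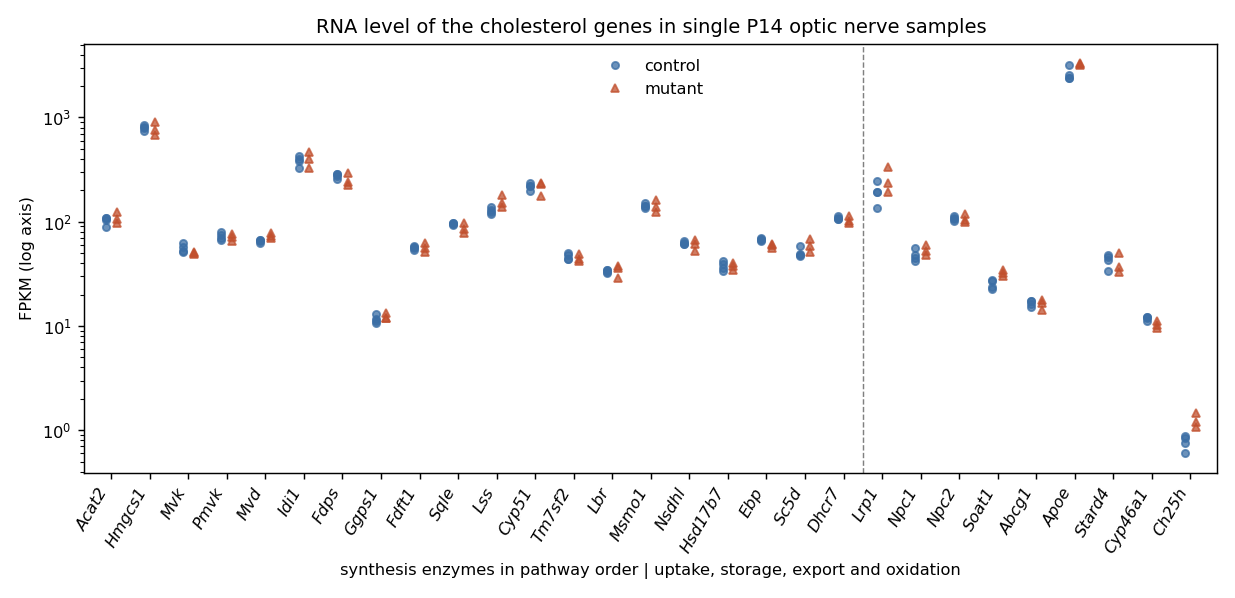
FPKM of the 29 cholesterol genes on a log axis, with 1 circle for each of the 4 control samples and 1 triangle for each of the 3 mutant samples. Genes run in pathway order, and the dashed line parts the 20 synthesis enzymes from the 9 genes of uptake, storage, export and oxidation. Levels differ far more between genes, from below 1 FPKM for Ch25h in controls to 3292 FPKM for Apoe, than between genotypes.

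The synthesis enzymes were abundant in the nerve at P14. Their 20 FPKM values summed to between 2646 and 2907 in the controls and to 2459, 3175 and 2770 in mutant samples 1 to 3. The mutant sum averaged 99.4% of the control mean, with mutant sample 1 below and mutant sample 2 above all controls. The most abundant enzyme was Hmgcs1, which makes HMG-CoA, with a control mean of 798 FPKM ± 40.8 (SD, n = 4). Idi1, which interconverts the isoprenoid units, followed with 384 ± 40.6 FPKM, and Fdps, which joins them into farnesyl diphosphate, with 277 ± 13.3 FPKM. The lowest level was that of Ggps1, at 11.7 ± 1.02 FPKM, which draws farnesyl diphosphate into a side branch toward protein prenylation.

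Of the 20 synthesis enzymes 12 were lower and 8 higher on average in the mutants, and of the 8, Idi1, Fdft1 and Lbr turned lower under other scalings of the samples. The median log2 fold change of the 20 was -0.03, beside 0.05 over all genes tested. It was -0.083 after median-of-ratios scaling, beside -0.0012 over all genes, and -0.11 for the deposited normalized counts, beside -0.025. Rescaling to equal sums gave -0.038, beside 0.042. On the FPKM scale as deposited, single values ran from -0.20 for Ebp to 0.28 for Lss. For all 20 enzymes the 95% interval of the difference lay within a 1.5-fold change either way, which held for 76.0% of all genes tested. That share was not matched for level, and the genes tested reach far lower levels than the enzymes. Groups did not overlap for 2 of the 20 enzymes, 1 below and 1 above the controls, beside 21.1% of all genes tested (8.26% below and 12.9% above).

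**Figure D2:**
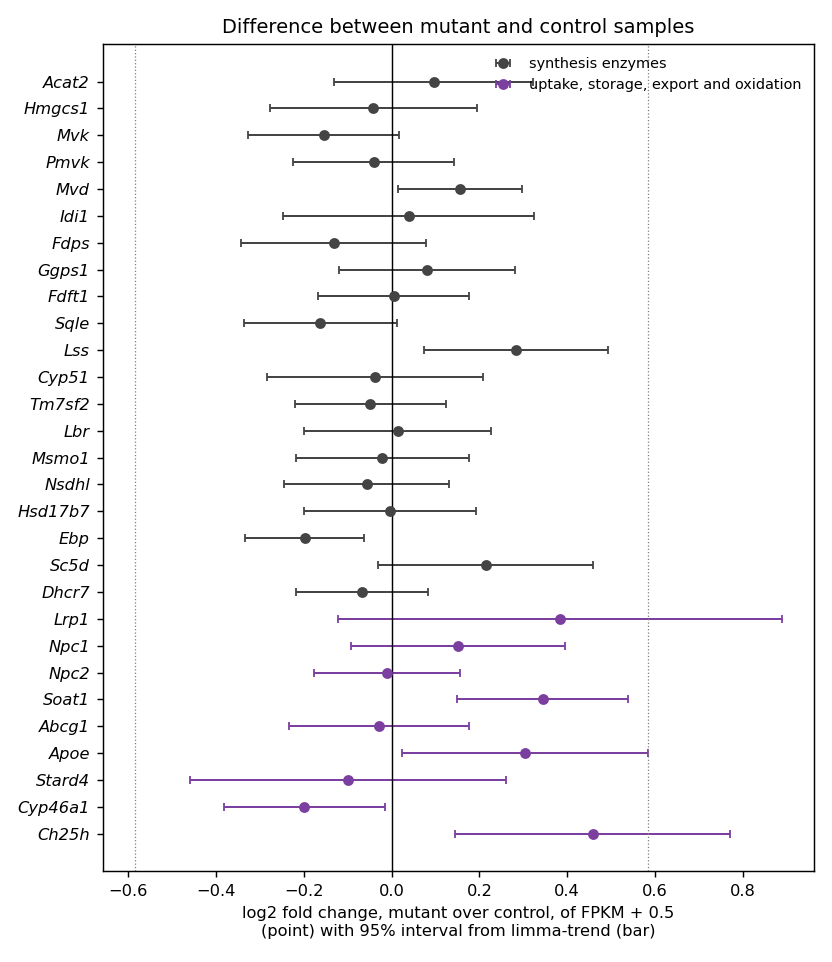
Log2 fold change of each cholesterol gene, mutant over control, on the scale of log2(FPKM + 0.5), as a point with its 95% interval from limma-trend as a bar. The dotted lines mark a 1.5-fold change. The intervals of all 20 synthesis enzymes (grey) lie between these lines, and those of Lrp1 and Ch25h (purple) extend past the upper one.

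The early steps, up to the isoprenoids, held no member that passed. Hmgcs1 read 846.6, 808.4, 790.4 and 748.4 FPKM in control samples 1 to 4 and 672.8, 904.4 and 765.0 FPKM in mutant samples 1 to 3. The highest and the lowest of these 7 values were both mutant samples, and its log2 fold change was -0.04 with an interval from -0.28 to 0.19. Acat2, the cytosolic thiolase that forms acetoacetyl-CoA, had control and mutant means of 102 and 109 FPKM. The mevalonate kinase Mvk averaged 56.0 FPKM in controls and 50.1 FPKM in mutants, and the next kinase, Pmvk, 73.0 and 70.9 FPKM.

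Mvd, which decarboxylates the phosphorylated mevalonate to isopentenyl diphosphate, was the enzyme whose mutant samples all lay above the controls. It lies at chr8:122433596-122443422 on GRCm38, on the minus strand. Controls 1 to 4 read 63.0, 67.1, 67.4 and 65.7 FPKM, and mutants 1 to 3 read 69.1, 78.6 and 72.7 FPKM. The gap between the highest control and the lowest mutant was small against the spread of the mutants. By limma-trend the difference was 0.16 on the log2 scale, with a standard error of 0.0621 and an adjusted p of 0.168. Its whole length overlaps a gene on the other strand, Gm20388, which read 18.7 FPKM on average, and reads of the pair cannot be told apart if strand was not used in counting. Idi1, Fdps and Ggps1 had log2 fold changes of 0.04, -0.13 and 0.08.

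From squalene to lanosterol the values of single enzymes went different ways. Fdft1, which makes squalene, averaged 56.3 FPKM in controls and 56.6 FPKM in mutants, with an interval of the difference from -0.17 to 0.18 on the log2 scale. It overlaps Ctsb on the other strand over 767 bases, a gene at 121 FPKM. Sqle, which oxidises squalene, averaged 96.0 ± 2.07 FPKM (SD, n = 4) in controls and 86.0 ± 9.81 FPKM (SD, n = 3) in mutants, with an adjusted p of 0.231 by limma-trend.

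Lss, the cyclase that folds oxidosqualene into lanosterol, had the largest positive fold change of the 20 enzymes. The gene lies at chr10:76531607-76557138 on GRCm38. Control samples 1 to 4 read 139.6, 119.3, 128.4 and 124.1 FPKM and mutant samples 1 to 3 read 139.4, 178.8 and 150.9 FPKM. The groups touched, since control sample 1 and mutant sample 1 were almost level. The mutants were higher by 0.28 on the log2 scale (standard error 0.0925), with a 95% interval of 5.30% to 40.8% above control and an adjusted p of 0.116 by limma-trend. Its promoter and that of Ebp, the synthesis enzymes with the smallest p-values, and that of Soat1, the other member with the smallest, are given here as RefSeq holds them on GRCm38.p6, in the direction of the gene, 250 bases before the start and 50 after it. Capitals mark each CCAAT box and each GC box (GGGCGG) on either strand, where a box on the other strand reads ATTGG or CCGCCC.

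Lss, chr10:76531355-76531654, plus strand: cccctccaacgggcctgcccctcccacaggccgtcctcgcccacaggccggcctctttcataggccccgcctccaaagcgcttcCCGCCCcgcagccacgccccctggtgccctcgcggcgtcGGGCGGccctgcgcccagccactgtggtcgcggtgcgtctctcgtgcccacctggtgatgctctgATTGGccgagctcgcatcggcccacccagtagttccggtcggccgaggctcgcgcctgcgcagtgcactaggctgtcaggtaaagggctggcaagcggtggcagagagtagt
Ebp, chrX:8193463-8193762, minus strand: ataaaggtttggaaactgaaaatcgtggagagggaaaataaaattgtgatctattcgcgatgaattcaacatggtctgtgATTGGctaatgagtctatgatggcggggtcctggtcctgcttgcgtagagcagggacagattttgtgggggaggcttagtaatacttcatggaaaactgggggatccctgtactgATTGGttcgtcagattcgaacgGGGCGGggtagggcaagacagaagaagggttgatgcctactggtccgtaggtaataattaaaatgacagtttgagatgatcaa
Soat1, chr1:156474279-156474578, minus strand: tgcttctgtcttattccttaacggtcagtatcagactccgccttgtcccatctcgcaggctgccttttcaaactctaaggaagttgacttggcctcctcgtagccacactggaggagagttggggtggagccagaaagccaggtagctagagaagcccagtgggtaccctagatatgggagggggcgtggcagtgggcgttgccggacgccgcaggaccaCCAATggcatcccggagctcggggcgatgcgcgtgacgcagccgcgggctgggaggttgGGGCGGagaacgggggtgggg

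A CCAAT box was found in at least 1 promoter of 16 of the 17 synthesis enzymes with a promoter in that table, and in 3 of the 6 other members with one. Over all 27025 genes of the table the share was 41.1%. A GC box was in the promoter of 15 of the 17 enzymes and 4 of the 6 other members, beside 38.2% of all genes. The core of the sterol regulatory element, searched as TCACNCCAC on both strands, was found only in the promoter of Hmgcs1 among these 23 members, beside 1.44% of all genes. It stands 137 bases before the start in the following window, with its bases in capitals beside the CCAAT and GC boxes.

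Hmgcs1, chr13:119690101-119690400, plus strand: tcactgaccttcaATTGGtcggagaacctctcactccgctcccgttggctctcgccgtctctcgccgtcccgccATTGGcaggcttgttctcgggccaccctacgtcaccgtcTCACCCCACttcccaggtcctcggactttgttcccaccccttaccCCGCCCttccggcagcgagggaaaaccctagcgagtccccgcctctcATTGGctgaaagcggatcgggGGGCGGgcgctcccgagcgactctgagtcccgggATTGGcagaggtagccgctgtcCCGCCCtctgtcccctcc

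No marked site overlaps another in the 4 printed windows. A match, or its absence, in these windows says nothing of binding, and the choice of the genes did not use the motifs.

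Downstream of lanosterol, Cyp51, the demethylase that acts on it, averaged 219 ± 15.8 FPKM (SD, n = 4) in controls and 214 ± 33.0 FPKM (SD, n = 3) in mutants. Cyp51 overlaps Akap9 on the other strand over 166 bases, a gene at 41.4 FPKM. The sterol reductases Tm7sf2 and Lbr, which carry out the same reduction, had log2 fold changes of -0.05 and 0.01. Tm7sf2 overlaps Vps51 on the same strand over 532 bases, a gene at 27.4 FPKM, so strand would not separate reads of that stretch. Msmo1, Nsdhl and Hsd17b7, which together strip methyl groups from the sterol ring, had log2 fold changes of -0.02, -0.06 and -0.0047. Sc5d, a desaturase, averaged 50.7 FPKM in controls and 59.0 FPKM in mutants, with overlapping groups, and Dhcr7, the reductase of the last step, 109 and 104 FPKM.

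Ebp, the sterol isomerase that binds emopamil, was the only enzyme with all mutant samples below all controls. It lies at chrX:8185329-8193512 on GRCm38, on the minus strand. Control samples 1 to 4 read 70.1, 67.2, 68.9 and 65.4 FPKM, from 2030 to 3009 estimated reads, and mutant samples 1 to 3 read 55.5, 60.4 and 61.7 FPKM. Since all mutants lay below all controls, the same had to hold within the females, samples 1 and 2, and within the males. The split by sex is therefore no separate check. The mean was lower in the mutants by a log2 value of -0.20 (standard error 0.0596), with a 95% interval from -20.6% to -4.26% and an adjusted p of 0.0999 by limma-trend. DESeq2 on the estimated reads gave an adjusted p of 0.0381, and the exact permutation test gave p = 0.0571, two-sided, the smallest that 4 samples against 3 allow.

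**Figure D3:**
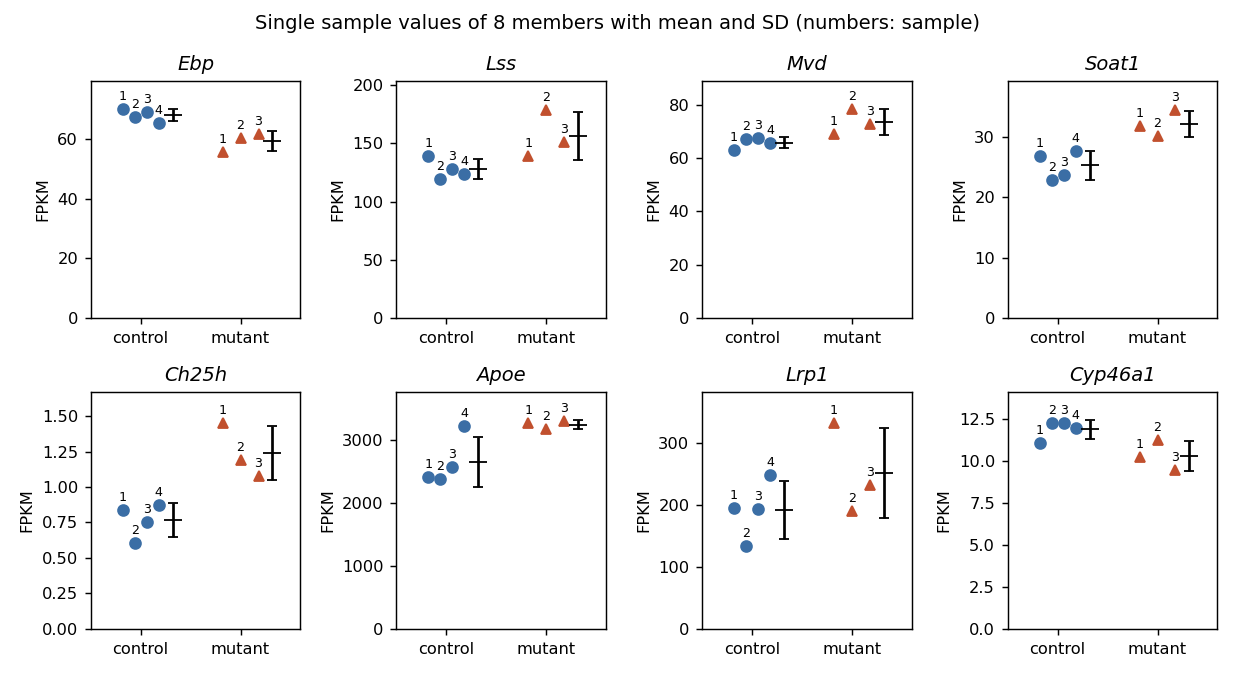
FPKM of 8 members in each sample, with circles for control samples and triangles for mutant samples, numbered by sample, and a bar for the mean and SD of each genotype. Axes start at 0. Ebp lies lower in all mutant samples, and Mvd, Soat1 and Ch25h lie higher in all of them, whereas Lss, Apoe, Lrp1 and Cyp46a1 overlap.

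The mutant samples differed from each other in their synthesis enzymes more than the controls did. The coefficient of variation was larger among the mutants for 17 of the 20 enzymes, beside 57.9% of all genes tested, with medians of 11.9% in mutants and 5.94% in controls. Mutant sample 2 was the highest mutant for 18 of the 20 enzymes, and mutant sample 1 the lowest for 17. The order of samples 2, 3 and 1 from high to low held for 16 of the 20, beside 12.3% of all genes tested. As the enzymes moved together, these counts describe the same few samples and are not independent of each other. Relative to the control mean, the median over the enzymes was -0.16 in mutant sample 1, 0.12 in mutant sample 2 and -0.03 in mutant sample 3 on the log2 scale, and -0.06 to 0.04 in the controls. The OL markers had the same order, with medians of -0.42, 0.00078 and -0.31 in mutant samples 1 to 3, and their part in the spread of the enzymes was not tested.

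**Figure D4:**
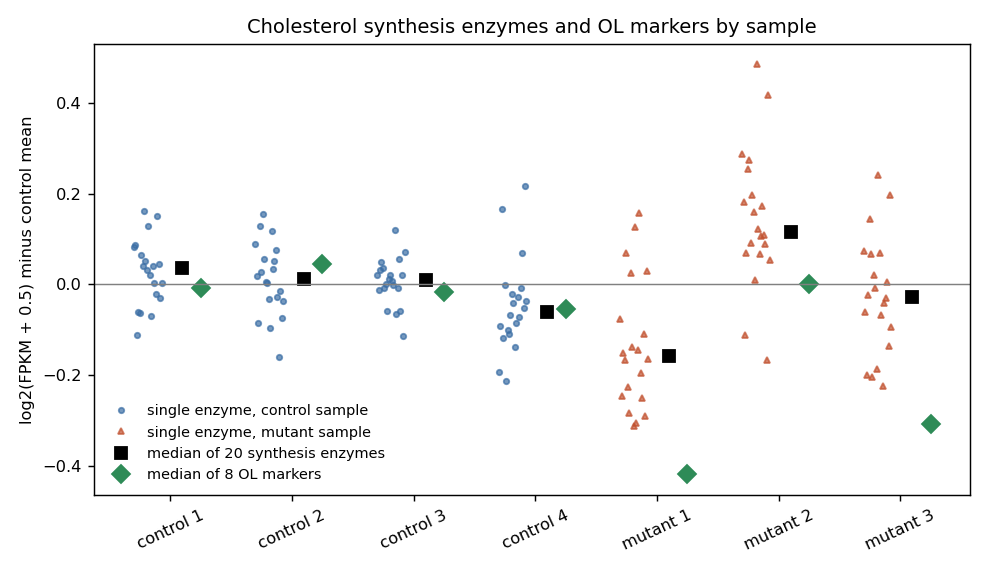
Log2(FPKM + 0.5) minus its control mean in each of the 7 samples. Small symbols are the 20 synthesis enzymes, black squares their median and green diamonds the median of 8 OL markers. In mutant samples 1 and 3 the squares, at -0.16 and -0.03, stand above the diamonds, at -0.42 and -0.31.

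Set against OL marker RNA, the synthesis enzymes were high in every mutant sample, a comparison chosen after the values had been seen. The summed FPKM of the 20 enzymes came to 21.7%, 19.8%, 20.2% and 19.0% of the summed FPKM of the 8 markers in control samples 1 to 4. In mutant samples 1 to 3 it came to 24.0%, 24.9% and 26.0%, so that all mutants lay above all controls. The mutant mean was 99.4% of control for the enzyme sum and 80.2% for the marker sum. By sample, the enzyme sum was 87.3%, 112.7% and 98.3% of the control mean in mutant samples 1 to 3. The marker sum was 73.2%, 91.1% and 76.3%. The divisor was thus below the control mean in each mutant sample, and in mutant sample 2 the enzyme sum was also above it. Genes were also taken singly, relative to the mean log2 level of the 8 markers in the same sample. Then 15 of the 20 enzymes lay higher in all mutants than in all controls, as did 5 of the 9 other members. Among all genes tested other than the markers the share was 25.7%. The exceptions among the enzymes were Mvk, Tm7sf2, Hsd17b7, Ebp and Dhcr7, whose groups overlapped. The size of this difference was not larger than elsewhere, with a median of 0.20 over the enzymes and 0.28 over the other genes. After this division by markers of which 7 of 8 were lower on average in the mutants, 12763 of the 13858 other genes had a higher mean in the mutants.

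Uptake, storage, export and oxidation genes spread more widely around 0 than the enzymes. Of these 9 members 5 were higher and 4 lower on average in the mutants, with a median log2 fold change of 0.15. The median was 0.067 without mutant sample 2, 0.093 without control sample 2 and 0.23 without control sample 3, and 0.070 under the stricter filter, which leaves out Ch25h, and 0.074 for the deposited normalized counts. Those lower, Npc2, Abcg1, Stard4 and Cyp46a1, and those higher, Lrp1, Npc1, Soat1, Apoe and Ch25h, kept their direction under all 3 other scalings. None passed limma-trend without the block, and with it Soat1 and Lrp1 did. An unadjusted p under 0.05 was reached by 4 of the 9, beside 24.4% of all genes tested. Groups did not overlap for 2 of them (22.2%), both higher in the mutants. Over all genes tested the share was 21.1% in either direction, with 8.26% below and 12.9% above the controls.

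Soat1, the acyltransferase that esterifies cholesterol with a fatty acid for storage in droplets, came nearest to the threshold of all 29 members. It lies at chr1:156424525-156474331 on GRCm38, on the minus strand, and its promoter is given with those of Lss and Ebp. It stood at 26.9, 22.8, 23.8 and 27.8 FPKM in controls 1 to 4 and at 31.9, 30.2 and 34.5 FPKM in mutants 1 to 3, from 1757 to 2350 estimated reads in each. All mutants lay above all controls. The difference came to 0.34 on the log2 scale (standard error 0.0861, limma-trend adjusted p = 0.0681), with a 95% interval of 10.9% to 45.3% above control. It passed with the replicate number as a block (log2 fold change 0.39, adjusted p = 0.0377) and with DESeq2 (adjusted p = 0.0220). Nceh1, which hydrolyses cholesteryl esters, averaged 35.2 FPKM in controls and 32.6 FPKM in mutants, and the other esterifying enzyme, Soat2, was under 0.5 FPKM in every sample.

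Ch25h, an enzyme that oxidises cholesterol to an oxysterol with a role in innate immunity, had the largest fold change and the lowest level of the set. It lies at chr19:34473786-34475135 on GRCm38, on the minus strand. Control samples 1 to 4 read 0.838, 0.604, 0.750 and 0.875 FPKM and mutant samples 1 to 3 read 1.45, 1.19 and 1.08 FPKM. These values rest on 32 to 70 estimated reads per sample, and the groups did not overlap. On the log2 scale the mutants were higher by 0.46 with a standard error of 0.138 (limma-trend adjusted p = 0.0999), and on this scale the change of so low a gene is understated. Cyp46a1, known in neurons for the hydroxylation by which the brain sheds cholesterol, read 11.1, 12.3, 12.3 and 12 FPKM in control samples 1 to 4 and 10.2, 11.3 and 9.504 FPKM in mutant samples 1 to 3. Mutant sample 2 overlapped the controls, and limma-trend gave a log2 difference of -0.20 with a standard error of 0.0811 (adjusted p = 0.177).

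Apoe, the main lipoprotein component of the CNS, was the most abundant member. It lies at chr7:19696109-19699166 on GRCm38, on the minus strand. Controls 1 to 4 held 2404, 2379, 2567 and 3217 FPKM, and mutants 1 to 3 held 3257, 3165 and 3292 FPKM. Control sample 4 stood with the mutants, above mutant sample 2. Mutants exceeded controls by 0.30 on the log2 scale (standard error 0.124), with an adjusted p of 0.175 by limma-trend. Apoe is made chiefly by astrocytes and microglia, and 6 of 6 astrocyte and 6 of 6 microglia markers had higher means in the mutants, with 3 and 0 of them past the test. So did 7 of 7 endothelial and mural, 5 of 5 fibroblast and 4 of 4 tested neuron markers, none past the test. Of the OL markers 7 of 8, and of the OL progenitor markers 4 of 5, were lower. Over all genes, 8329 of the 13866 tested were higher. Summed FPKM of the microglia markers was 164 to 200 in the controls and 203 to 222 in the mutants. The part of astrocytes and microglia in the Apoe level was not tested.

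Lrp1, a large receptor that takes up apolipoprotein E particles among other ligands, varied most between samples. It lies at chr10:127538161-127621148 on GRCm38, on the minus strand. Control samples 1 to 4 read 194.8, 134.3, 193.3 and 248.3 FPKM and mutant samples 1 to 3 read 332.5, 191.2 and 233.2 FPKM. The groups overlapped, with control sample 4 above mutant samples 2 and 3. Without a block the log2 difference was 0.38 (standard error 0.223, limma-trend adjusted p = 0.324), with an interval from -0.12 to 0.89. With the replicate number as a block it was 0.52 and passed (adjusted p = 0.0346), each mutant lying above the control of its number in 3 of 3 pairs. Control sample 4, the highest control, has no partner and does not enter the blocked difference, and leaving it out without a block gave the same 0.52 with an adjusted p of 0.210 by limma-trend. Without a block the value was 0.17 without mutant sample 1, 0.22 without control sample 2 and 0.56 without mutant sample 2. Fibroblast markers were also highest in mutant sample 1, where their summed FPKM was 4022 against 1617 to 2398 in the other samples, and their part in the Lrp1 level was not tested.

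The remaining members showed small differences. Npc1 and Npc2, which hand cholesterol out of the lysosome, averaged 47.9 and 107 FPKM in controls and 53.2 and 107 FPKM in mutants. Abcg1, a sterol exporter, averaged 16.5 and 16.2 FPKM. Stard4, a cytosolic sterol carrier, read 33.4 to 47.8 FPKM in the controls and 32.8 to 49.98 FPKM in the mutants. Npc1 overlaps 3110002H16Rik on the other strand over 305 bases, a gene at 14.2 FPKM.

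Among related genes outside the set, 3 passed the test. Alternative fits were not read out for these genes, so how far the 3 calls depend on the processing is not shown. Of 13 genes of precursor supply and isoprenoid use, 12 were tested and 2 passed, where 2.62% of all genes did. On average 5 were lower and 7 higher in the mutants. Aacs, which activates acetoacetate for lipid synthesis, was higher, at 83.8 to 96.7 FPKM in the controls and 108 to 120.2 FPKM in the mutants (0.35 ± 0.0749 (SE) on the log2 scale, limma-trend adjusted p = 0.0480). Fntb, the beta subunit of the farnesyltransferase that attaches farnesyl groups to proteins, was lower, at 67.1 to 75.1 FPKM in the controls and 44.8 to 53.1 FPKM in the mutants (-0.52 ± 0.0749 (SE), limma-trend adjusted p = 0.0214). Its partner Fnta, the third by p-value, averaged 88.1 FPKM in controls and 69.3 FPKM in mutants (adjusted p = 0.0681, limma-trend).

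Of 22 genes of lipoprotein handling, efflux and sterol turnover, 20 were tested and 1 passed. On average 7 were lower and 13 higher in the mutants, beside 8329 higher of the 13866 genes tested. Gramd1b, which carries cholesterol from the plasma membrane to the endoplasmic reticulum, read 10.3 to 11.4 FPKM in the controls and 14.3 to 15.7 FPKM in the mutants (0.46 ± 0.0731 (SE) on the log2 scale, limma-trend adjusted p = 0.0249). The next by p-value were Cyp7b1, an oxysterol hydroxylase, at 5.62 and 7.45 FPKM (adjusted p = 0.0562, limma-trend) and Cyp27a1, which oxidises the cholesterol side chain, at 39.1 and 31.0 FPKM (adjusted p = 0.0714, limma-trend). Abca1, the exporter that loads apolipoproteins, read 9.23 to 12.2 FPKM in the controls and 13.3 to 18.03 FPKM in the mutants, without passing (adjusted p = 0.0756, limma-trend). Vldlr, a receptor that takes up lipoprotein particles, averaged 49.4 FPKM in controls and 40.1 FPKM in mutants and did not pass (adjusted p = 0.0959, limma-trend). Lcat had the largest fold change of the 20, at 25.9 to 27.9 FPKM in the controls and 30.3 to 50.4 FPKM in the mutants. It did not pass (0.53 ± 0.142 (SE) on the log2 scale, limma-trend adjusted p = 0.0806). Abca1, Vldlr and Nceh1 were singled out for their role, and Lcat for its fold change, after the values had been seen.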

How the data were processed

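P14 optic nerves of 4 control and 3 mutant mice were each sequenced as 1 library, grouped by the genotype in the labels. The authors prepared stranded mRNA libraries, aligned cleaned single-end reads to GRCm38 with STAR 2.5.1b and estimated gene levels with RSEM 1.2.22. They deposited, for 22880 genes, a normalized count (a signal scaled between samples) and an FPKM value per sample, 14 columns in all. Their fold changes and p-values, which are in the same table, were not used. Whether counting used strand is not given in the sources used here.

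FPKM values were tested as log2(FPKM + 0.5) with limma-trend (limma 3.58.1, R 4.3.3), genotype being the only term, for the 13866 genes with at least 0.5 FPKM in at least 3 samples. Benjamini-Hochberg adjustment ran over all of them, with a threshold of 0.05. The script was tested on simulated data. A single value was also compared by an exact two-sided permutation test. Dividing the deposited normalized counts by their smallest step gave estimated reads, of which 79.9% to 82.2% of low values (up to 100 reads) were whole within 0.1, and edgeR 4.0.16 and DESeq2 1.42.0 were run on these, rounded, as alternatives. Each mouse was 1 replicate. Deviations from the group means, gene by gene, were correlated between same-numbered mutants and controls, at 0.168, 0.409 and 0.270 (other pairs -0.353 to 0.205). The numbers were taken as pairs in a fit with the replicate number as a block. The labels do not say what the number stands for.

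The 29 members, the lists of related and marker genes and the motifs were chosen with earlier results of these data known. All members are named, those with the 5 smallest p-values, the largest and smallest fold changes and the highest level with every sample, and of the related genes those that passed and the 3 with the smallest p. Promoters came from RefSeq, which gave 23 of the 29 members. Some genes are not reported here. Xist was not analysed, and sex was read from Y-linked genes.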

Additional observations from a re-analysis of the deposited data

Results flagged for a closer look

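Of 77 values compared over the 4 control samples, 4 had a sample whose gap to its neighbour exceeded the share of the range that Dixon's test allows at the 95% level, and chance alone gives about 1 in 20. Acat1, a mitochondrial thiolase among the related genes, was at 46.9 FPKM in control sample 4, and the next control was at 51.6 FPKM. Scarb1, a lipoprotein receptor among the related genes, was at 18.5 FPKM in control sample 3, and the next was at 17.1 FPKM. Control sample 2 had 8343 summed FPKM of 3 blood markers (next 2809) and 4.42 summed FPKM of 3 Schwann cell markers (next 1.199). No cholesterol gene passed the limma-trend test with or without control sample 2. Only 15 of 13866 genes passed without it, so that fit cannot show whether the sample mattered.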

How the results depend on the processing

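Under 19 alternatives no synthesis enzyme and no other member passed except as follows (18 alternatives for Ch25h, which fell below the stricter filter). The replicate block called 2 uptake, storage and export genes higher (Soat1 and Lrp1), and DESeq2 called 1 synthesis enzyme lower (Ebp) and 1 other gene higher (Soat1). The cause of these changes was not tested. Over the alternatives other than leaving out a sample, the adjusted p of Soat1 ran from 0.0220 to 0.122, of Ebp from 0.0381 to 0.136, of Ch25h from 0.0809 to 0.139 and of Lss from 0.108 to 0.290. With each sample left out in turn, the adjusted p of limma-trend ran from 0.0534 to 0.179 for Soat1 and from 0.0939 to 0.242 for Ebp.

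The count over all genes, 363, was 95 without the filter on low values (19291 genes tested), 241 after rescaling to equal sums, 203 with sex as a second term, 1159 with the replicate block and 1677 with DESeq2. With each sample left out in turn it ran from 6 (control sample 3 or mutant sample 3) to 907 (mutant sample 2), with 15, 60 and 117 without control samples 2, 1 and 4 and 186 without mutant sample 1. In these 7 fits no member passed. The median of the synthesis enzymes ran from -0.10 without mutant sample 2 to 0.05 without mutant sample 1, and that of the other members from 0.067 without mutant sample 2 to 0.23 without control sample 3. Without mutant sample 2, 344 genes were lower and 563 higher.

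Some members with fold changes near 0 changed sign. With median-of-ratios scaling Idi1 was -0.015, Fdft1 -0.048 and Lbr -0.039. With the deposited normalized counts they were -0.039, -0.073 and -0.064. Rescaling to equal sums gave Fdft1 -0.0034. The replicate block gave Idi1 -0.032, Fdft1 -0.018 and Hsd17b7 0.018. The reads gave Fdft1 -0.037 and Lbr -0.025 with edgeR, and -0.033 and -0.022 with DESeq2. With sex as a term Fdft1 was -0.0021 and Lbr -0.020. With each sample left out in turn, the lowest and highest values were -0.00030 and 0.18 for Acat2, -0.15 and 0.060 for Hmgcs1, -0.095 and 0.023 for Pmvk, -0.079 and 0.17 for Idi1, -0.073 and 0.076 for Fdft1, -0.12 and 0.095 for Cyp51, -0.059 and 0.13 for Lbr, -0.12 and 0.067 for Msmo1, -0.14 and 0.040 for Nsdhl, -0.058 and 0.047 for Hsd17b7, -0.080 and 0.042 for Npc2, -0.092 and 0.056 for Abcg1 and -0.27 and 0.025 for Stard4.

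The fits to reads were chosen after seeing the data, as was sex as a term, because the plan asked for whole reads in nearly all genes. The depth of the estimated reads limits Ch25h most, at 32 to 70 reads.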
